A study of Mus musculus with 10 samples.

Results

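The genes described here encode 9 mucin-domain or mucin-like glycoproteins of the endothelial cell surface, *Cd34*, *Podxl*, *Emcn*, *Cd164*, *Dag1*, *Cd44*, *Cd93*, *Muc1* and *Podxl2*. They were chosen by name, as proteins that the mucinase StcE could cut, and all 9 were found among the 27024 rows with a gene name, each on a row of its own. Of the 9, 7 had a mean of at least 1 FPKM (fragments per kilobase of exon length, normalised for sequencing depth) over all samples and were tested among 11062 genes. *Muc1* and *Podxl2* were below that level and are given as levels. The question addressed was where these transcripts stand among all transcripts of brain endothelial cells, and how far each differed after the enzyme had acted on the cells.

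RNA was measured in 10 samples of bEnd.3, an immortalised mouse brain endothelial cell line of labelled genotype WT. StcE is a bacterial protease that cleaves proteins carrying dense mucin-type O-glycans. In growth medium, 5 samples received 5 nM StcE (replicates 1, 2, 3, 5 and 6) and 5 received saline in equal volume (replicates 1, 2, 3, 4 and 5), each for 16 h. Poly-adenylated RNA was made into directional libraries with dUTP. All samples come from a single cell line, and none received an inactive enzyme, so cleavage cannot be told apart from other effects of adding the protein. The labels do not state that replicates were separate cultures, and p-values measure the spread between these samples, which may be technical. Saline samples held 21918326 to 29011314 recovered fragments (median 23806628) and StcE samples 21859342 to 33140289 (median 26250070).

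A mucin domain is a stretch rich in serine, threonine and proline whose side chains carry closely spaced O-linked glycans, which hold the protein backbone extended above the membrane. On brain endothelium such proteins form part of the glycocalyx, the sugar-rich layer facing the blood. CD34, podocalyxin and endoglycan (the product of *Podxl2*) are related sialomucins, while CD44, CD93 and dystroglycan join a glycosylated stretch to domains that bind matrix or other partners.

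The endothelial label was checked against 13 endothelial markers, all of which passed the filter. Their summed level was 1995 to 2139 FPKM in saline samples and 1928 to 2011 FPKM in StcE samples, and *Cdh5*, the VE-cadherin gene, was the most abundant at 509 ± 25.9 FPKM (SD, n = 5) with saline. *Vwf*, a marker of many larger vessels, was near the filter at 1.42 FPKM. Of the leukocyte markers, *Ptprc* was at 0 in 8 of 10 samples, *Csf1r* had a saline mean of 0.0599 FPKM, and *Lyz2*, too low to be tested, had 1.07 FPKM with saline (0.513 to 1.44) and 0.576 with StcE (0.392 to 0.745). The lysosomal gene *Cd68*, which is not restricted to leukocytes, made up most of that list's sum with 20.4 FPKM with saline and 19.7 with StcE. Among epithelial markers *Epcam* was at 0 in 8 samples, *Krt8* and *Krt18* had 0.0197 and 0.142 FPKM with saline, and *Krt19* had 1.58. Of the mural cell and fibroblast markers, *Dcn* was at 0 in 9 samples and *Pdgfrb*, *Pdgfra* and *Acta2* had 0.166, 1.18 and 3.08 FPKM. The 5 neuronal and glial markers, among them *Gfap*, *Mbp* and *Snap25*, summed to at most 0.0932 FPKM in any sample. Of the 4 genes of these non-endothelial lists that could be tested with limma (*Krt19*, *Cd68*, *Acta2* and *Pdgfra*), 0 passed the threshold and 0 had an unadjusted p below 0.05. With voom on recovered fragments 0 of those tested passed.

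In saline, 4 of the 9 transcripts ranked within the top 503 of the 27024 rows. *Cd93*, a C-type lectin receptor of endothelial cells that binds the matrix protein multimerin 2, was highest at 191 ± 5.42 FPKM (SD, n = 5), rank 230, with ranks from 227 to 248 over the 5 samples. *Cd34*, a sialomucin of vascular endothelium and blood progenitors, ranked 290 (287 to 294) with 154 ± 2.09 FPKM. The endomucin gene *Emcn* ranked 447 (431 to 466) with 105 ± 3.51 FPKM. These 3 genes stood in the same order in every saline sample and their ranges did not meet. FPKM divides fragments by the merged length of all exons of a gene, so order and ranks depend on that length. It was 6677 bases for *Cd93*, 7290 for *Cd34* and 5409 for *Emcn*. Their longest transcripts had 6677, 3063 and 3521 bases. The order by transcript length was not tested.

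*Podxl*, the podocalyxin gene, followed at rank 503 (469 to 550) with 94.7 ± 4.45 FPKM (SD, n = 5). *Cd164*, which encodes endolyn, a sialomucin of endosomes and the cell surface, ranked 875 (841 to 903) with 58.5 ± 1.36 FPKM. The hyaluronan receptor gene *Cd44* ranked 1168 (1098 to 1251) with 46.0 ± 1.68 FPKM. *Dag1*, which encodes both subunits of dystroglycan, a receptor for laminin, ranked 2234 (2157 to 2375) with 25.7 ± 1.15 FPKM.

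The remaining pair stood far lower. *Muc1*, an epithelial transmembrane mucin, had 0.163 ± 0.0342 FPKM (SD, n = 5), rank 14710 (13972 to 15027), and *Podxl2* had 0.0900 ± 0.0167 FPKM, rank 16207 (15565 to 16681). The step from *Dag1* down to *Muc1* was 158-fold in mean FPKM. Neighbours in the order did not overlap in saline, where the closest were *Emcn* (lowest sample 101 FPKM) and *Podxl* (highest sample 99.7 FPKM). The order of *Muc1* and *Podxl2* also depends on the length used. They had 49 and 67 fragments summed over saline samples and merged exon lengths of 2346 and 5749 bases. Their longest transcripts had 2242 and 2195 bases. With StcE the order of means was the same, and *Muc1* and *Podxl2* overlapped. The closest of the other neighbours were *Emcn* (lowest sample 101.3 FPKM) and *Podxl* (highest sample 100.2 FPKM). The lowest *Cd93* sample (154 FPKM) also stood close above the highest *Cd34* sample (151 FPKM). By rank of the StcE means, *Cd93* stood at 264, *Cd34* at 309, *Emcn* at 449, *Podxl* at 521, *Cd164* at 882, *Cd44* at 985 and *Dag1* at 2524.

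**Figure D1:**
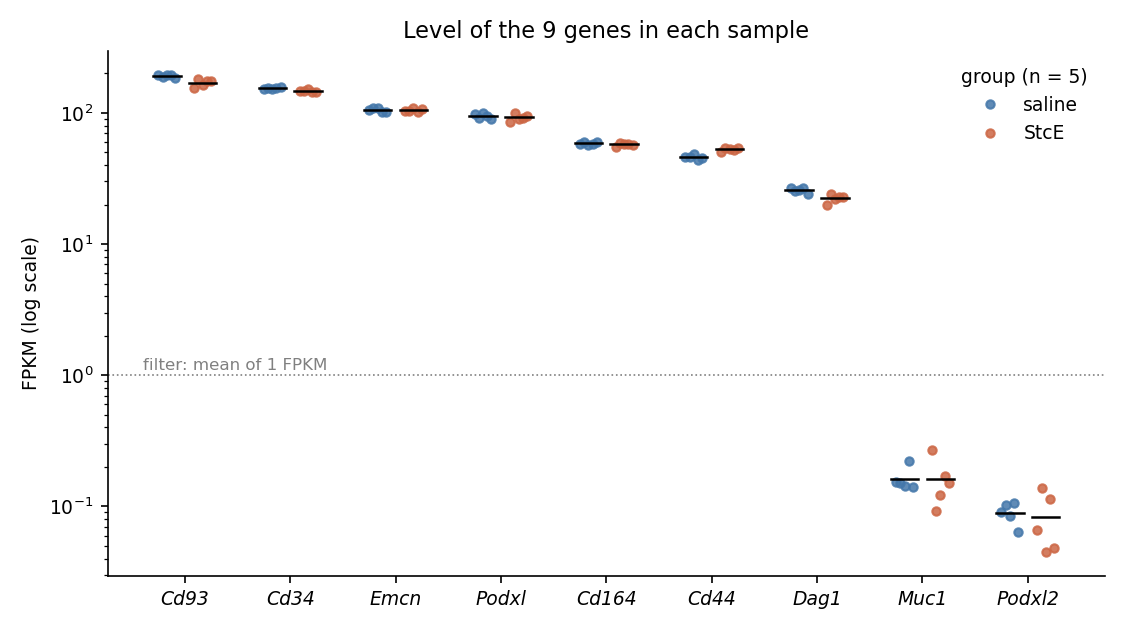
FPKM of the 9 genes (log axis) in each of 5 saline and 5 StcE samples, with points for samples, black bars for group means and a dotted line at the filter of 1 FPKM. Of the genes, 7 lie between 19.8 and 196 FPKM in every sample, and *Muc1* and *Podxl2* lie below 0.272 FPKM.

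After StcE, 3 of the 7 tested genes passed an adjusted p of 0.05 in limma, *Cd93* and *Dag1* lower and *Cd44* higher. Over all 11062 genes the share past the threshold was 11.9% (1320 genes), with 6.41% lower (709 genes) and 5.52% higher (611 genes). The genes were chosen with earlier results of these data known, and no test was made of their count. The median log2 fold change was -0.04 over the 7 and -0.00066 over all genes tested, and 6 of the 7 had a value below 0 (5 when scaled by the total of recovered fragments and 3 when scaled by the upper quartile). The count over all genes was 838 without saline replicate 1 and 793 without StcE replicate 3. Of the 7, 1 passed without saline replicate 1 and 2 passed without StcE replicate 3. Scaling the samples by their upper quartile gave 183 lower and 821 higher genes in place of 709 and 611, and left *Cd44* as the 1 gene of the 7 past the threshold. In bulk RNA a lower level in each cell cannot be told apart from fewer cells that express the gene.

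*Cd93* (chromosome 2, 148436640 to 148443563, minus strand) had 196, 187, 194, 194 and 183 FPKM in saline replicates 1, 2, 3, 4 and 5, and 154, 181, 164, 176 and 174 FPKM in StcE replicates 1, 2, 3, 5 and 6. No StcE sample reached the lowest saline sample, with StcE replicate 1 the lowest and replicate 2 the nearest to saline. The mean fell from 191 ± 5.42 to 169.7 ± 10.9 FPKM (SD, n = 5 each), a log2 fold change of -0.17 (limma adjusted p = 0.0214, standard error 0.0412; exact two-sided permutation p = 0.00794, the smallest that 5 against 5 samples can give). Groups that did not overlap were found for 10.7% of all genes tested. The call was lost without saline replicate 1 (log2 fold change -0.16, limma adjusted p = 0.0545) and without StcE replicate 3 (-0.16, limma adjusted p = 0.0572), and under upper quartile scaling (-0.12, limma adjusted p = 0.161). It was also lost without a filter (-0.17, limma adjusted p = 0.0714). In the 8 samples with shared replicate numbers the value was -0.18. The call was lost there with a replicate block (limma adjusted p = 0.152) and without it (limma adjusted p = 0.0596). It held under 16 of 22 alternatives, with limma adjusted p from 0.00485 to 0.161. Without StcE replicate 1, the farthest from saline, the value was -0.14 (limma adjusted p = 0.0268). Copies of at least 95% identity in other genes cover 2.32% of the longest *Cd93* transcript.

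*Dag1* (chromosome 9, 108204634 to 108263958, minus strand) had 26.6, 25.4, 25.8, 26.7 and 23.9 FPKM in saline replicates 1, 2, 3, 4 and 5, and 19.8, 24.0, 21.9, 23.0 and 22.8 FPKM in StcE replicates 1, 2, 3, 5 and 6. The groups overlapped by the pair of saline replicate 5 and StcE replicate 2, while the other 4 StcE samples lay below all saline samples. The mean fell from 25.7 ± 1.15 to 22.3 ± 1.59 FPKM (SD, n = 5 each), a log2 fold change of -0.20 (limma adjusted p = 0.0229, standard error 0.0477; exact two-sided permutation p = 0.0159). By absolute log2 fold change it had rank 874 among the 11062 genes tested. The call was lost without saline replicate 1 (-0.18, limma adjusted p = 0.0588), without saline replicate 4 (-0.18, limma adjusted p = 0.0531), without StcE replicate 3 (-0.19, limma adjusted p = 0.0563) and under upper quartile scaling (-0.15, limma adjusted p = 0.133). It was also lost without a filter (-0.20, limma adjusted p = 0.0725). In the 8 samples with shared replicate numbers the value was -0.19. The call was lost there with a replicate block (limma adjusted p = 0.160) and without it (limma adjusted p = 0.0710). It held under 15 of 22 alternatives, with limma adjusted p from 0.00538 to 0.160. Without StcE replicate 1 the value was -0.15 (limma adjusted p = 0.0291).

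*Cd44* (chromosome 2, 102811141 to 102901665, minus strand) had 46.1, 46.4, 48.4, 43.7 and 45.5 FPKM in saline replicates 1, 2, 3, 4 and 5, and 50.6, 53.9, 52.9, 52.2 and 53.5 FPKM in StcE replicates 1, 2, 3, 5 and 6. The lowest StcE sample exceeded the highest saline sample. The mean rose from 46.0 ± 1.68 to 52.6 ± 1.30 FPKM (SD, n = 5 each), a log2 fold change of 0.19 (limma adjusted p = 0.00169, standard error 0.0285; exact two-sided permutation p = 0.00794). By p-value it stood at rank 180 of the 11062 genes tested, and it was past the threshold under each of the 22 alternatives tried (limma adjusted p from 0.000218 to 0.0413). Its rank by level moved from 1168 in saline to 985 with StcE. Per unit of *Cd93*, the level of *Cd44* was 0.241 ± 0.0106 with saline and 0.311 ± 0.0146 with StcE (ratio of FPKM, SD, n = 5 each), which restates the separate changes of the 2 genes.

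The promoter sequences of *Dag1* and *Cd44*, which changed in opposite directions, show how their starts differ in base composition. RefSeq promoters (GRCm38.p6) were matched by symbol for 7 of the 9 genes, and the 250 bases before the start site were searched on both strands for 4 motifs. These were the GC box with the letters GGGCGG, a motif of ETS factors written GGAAGT, the AP-1 motif in its form TGAGTCA, and the letters TATAAA found near many start sites. *Cd93* and *Podxl* had no matched promoter, so they were not searched and are named only. The sequences are given 5′ to 3′ on the minus strand, chr9:108263959-108264208 for *Dag1* and chr2:102901666-102901915 for *Cd44*, with any match to these motifs in capitals.
Dag1: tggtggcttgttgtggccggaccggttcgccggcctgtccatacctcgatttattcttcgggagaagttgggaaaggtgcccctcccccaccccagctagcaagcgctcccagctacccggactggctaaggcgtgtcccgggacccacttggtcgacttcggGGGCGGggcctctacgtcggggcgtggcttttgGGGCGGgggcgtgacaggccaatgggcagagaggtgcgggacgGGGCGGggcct
Cd44: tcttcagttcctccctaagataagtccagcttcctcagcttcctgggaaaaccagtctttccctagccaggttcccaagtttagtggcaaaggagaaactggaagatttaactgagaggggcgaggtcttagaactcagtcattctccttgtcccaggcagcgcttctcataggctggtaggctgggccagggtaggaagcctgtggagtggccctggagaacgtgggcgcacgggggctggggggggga
*Dag1* had 3 GC boxes, all on the strand shown, and 67.6% G and C, whereas *Cd44* had no match to any of the 4 motifs and 56.4% G and C. Of 32851 promoters of this length, 32.7% held a GC box, 8.47% held 3 or more, 19.7% held GGAAGT, 4.46% held TGAGTCA and 12.4% held TATAAA, with a median G and C content of 52.4%. Among the other matched genes *Cd164* had 4 GC boxes and *Muc1* and *Podxl2* 2 each, *Muc1* also had a TATAAA, and *Cd34* and *Emcn* had none of the 4 motifs at 46.4% and 40.8% G and C. A match describes these letters and is not evidence of a bound site.

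**Figure D2:**
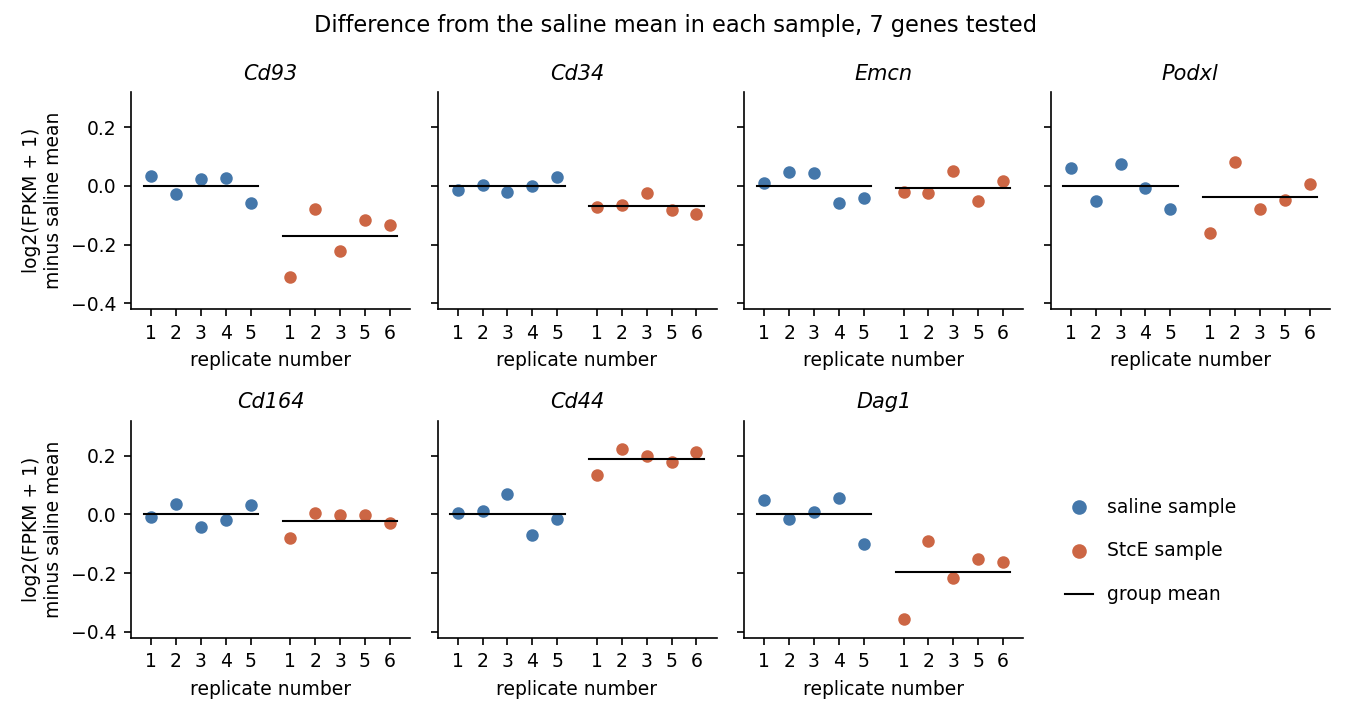
Difference of log2(FPKM + 1) from the saline mean for each of the 7 genes tested, by sample, with replicate numbers along the horizontal axis and black lines at group means. The 5 StcE samples lie below all saline samples for *Cd93* and *Cd34* and above them for *Cd44*, and StcE replicate 1 is the lowest StcE sample for *Cd93*, *Dag1*, *Podxl*, *Cd164* and *Cd44*.

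Of the sialomucins, *Cd34* (chromosome 1, 194938819 to 194961279, plus strand) had 152, 154, 152, 154 and 157 FPKM in saline replicates 1, 2, 3, 4 and 5, and 147, 147, 151, 145 and 144 FPKM in StcE replicates 1, 2, 3, 5 and 6. The groups did not overlap, though the highest StcE sample (151.5 FPKM in replicate 3) and the lowest saline sample (151.8 FPKM in replicate 3) nearly met. With means of 154 ± 2.09 and 147 ± 2.80 FPKM (SD, n = 5 each), the log2 fold change was -0.07 (95% interval -0.11 to -0.02), which missed the threshold over all genes (limma adjusted p = 0.0526), and the exact two-sided permutation p was 0.00794. Without StcE replicate 3 it passed, at -0.08 (limma adjusted p = 0.0461, against 0.0461 to 0.754 over 22 alternatives). An antisense gene overlaps 2.03% of its exon length, and whether fragments were counted by strand is not given in the sources used here.

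*Emcn* (chromosome 3, 137341067 to 137432185, plus strand) had 106, 109, 108, 101 and 102 FPKM in saline replicates 1, 2, 3, 4 and 5, and 104, 103, 109, 101 and 106 FPKM in StcE replicates 1, 2, 3, 5 and 6. The samples of both groups were intermixed. The log2 fold change was -0.0055 with a 95% interval of -0.07 to 0.06 (limma adjusted p = 0.926).

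*Podxl* (chromosome 6, 31519488 to 31563981, minus strand) had 98.7, 91.4, 99.7, 94.2 and 89.6 FPKM in saline replicates 1, 2, 3, 4 and 5, and 84.7, 100.2, 89.6, 91.5 and 95.1 FPKM in StcE replicates 1, 2, 3, 5 and 6. StcE samples held both the lowest and the highest value. The log2 fold change was -0.04 (95% interval -0.14 to 0.06, limma adjusted p = 0.616). For *Cd164* (chromosome 10, 41519414 to 41531048, plus strand) saline samples lay between 56.8 and 59.9 FPKM and StcE samples between 55.2 and 58.7 FPKM, a log2 fold change of -0.02 (95% interval -0.08 to 0.03, limma adjusted p = 0.598).

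*Muc1* (chromosome 3, 89229057 to 89233381, plus strand) rested on 8 to 12 fragments in each saline sample and 6 to 15 in each StcE sample. Summed over 5 samples these were 49 fragments with saline (exact Poisson 95% interval 36.3 to 64.8) and 54 with StcE (40.6 to 70.5). *Podxl2* (chromosome 6, 88842558 to 88875044, minus strand) had 67 fragments with saline (51.9 to 85.1) and 70 with StcE (54.6 to 88.4). These sums are not adjusted for depth, which differed between the samples, and the intervals cover counting error only. Mean FPKM with saline and StcE was 0.163 and 0.162 for *Muc1* and 0.0900 and 0.0825 for *Podxl2*. In the fit without a filter neither gene passed (limma adjusted p = 0.988 and 0.874). Their log2 fold changes there were -0.0022 and -0.011, on log2(FPKM + 1), which understates changes of low genes. What depth would show a difference was not tested. An antisense gene overlaps 19.1% of the *Podxl2* exon length and matches 15.5% of its longest transcript.

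Taken as a pool, the 9 transcripts summed to 661 to 685 FPKM in saline samples (mean 675) and 615 to 668 FPKM in StcE samples (mean 646), and these ranges overlapped. *Cd93* made up 27.7% to 28.9% of the sum in saline samples and 25.0% to 27.2% in StcE samples. The share of *Cd44* was 6.50% to 7.06% with saline and 8.06% to 8.23% with StcE, and that of *Cd34* was 22.1% to 23.8% and 22.0% to 23.8%. Which gene holds the larger share depends on the merged exon lengths in FPKM, and shares by transcript length were not tested.

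Samples of a group varied in a shared manner for some of the genes. Among StcE samples, replicate 1 was the lowest and replicate 2 the highest for *Cd93*, *Dag1*, *Podxl*, *Cd164* and *Cd44*, whereas *Cd34* and *Emcn* were highest in replicate 3. StcE replicate 1 also held the fewest fragments, 21859342, while replicate 2 held 26250070, and the part of depth in this pattern was not tested. Among saline samples, replicate 5 was the lowest for *Cd93*, *Dag1* and *Podxl*.

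Over the 10 samples, the profiles nearest to *Cd93* were those of *Vcl*, which encodes the focal adhesion protein vinculin, *Adam12*, a metalloprotease gene, and *Dag1*, with root mean square differences of 0.0201, 0.0268 and 0.0273 log2 units from the saline-centred profile. Nearest to *Dag1* were *Cd93* (0.0273), the basement membrane collagen gene *Col4a1* (0.0281) and *Vcl* (0.0302). Since the profiles include the difference between the groups, genes near to them share its direction by choice, and no p-value is given for them. The means with saline and StcE were 30.7 and 27.3 FPKM for *Vcl*, 538 and 469 for *Col4a1* and 14.9 and 13.3 for *Adam12*. Nearest to *Cd44* were *Tinagl1* (0.0317), which encodes a secreted matrix protein, *Cir1* (0.0343) and *Ccdc137* (0.0390). *Tinagl1* had means of 112 and 127 FPKM.

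**Figure D3:**
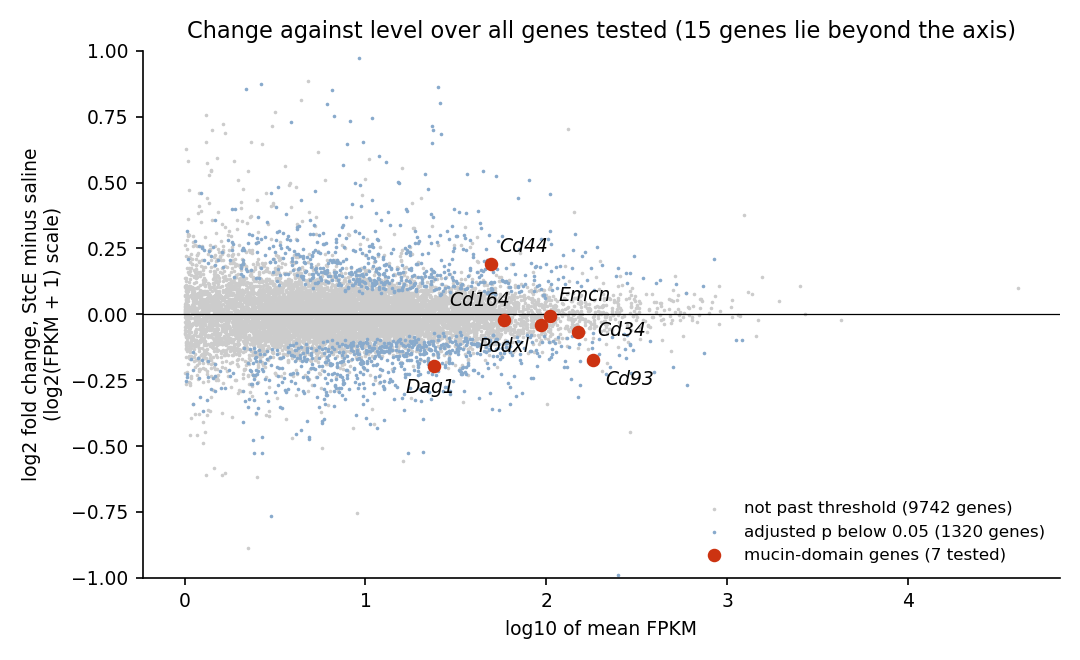
Log2 fold change (StcE minus saline) against log10 of mean FPKM for 11062 genes, with 1320 genes past the threshold in blue, 9742 others in grey and the 7 mucin-domain genes in red; 15 genes lie beyond the vertical axis. *Cd44* lies at 0.19, *Cd93* at -0.17 and *Dag1* at -0.20, and the other 4 lie between -0.07 and -0.0055.

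The relatives and ligands of CD93 included 4 tested genes, of which 2 fell, 0 rose and 2 did not pass (over all genes tested, 6.41% fell and 5.52% rose). *Mmrn2*, which encodes the CD93 ligand multimerin 2, fell from 71.7 ± 3.59 to 60.7 ± 2.35 FPKM (SD, n = 5 each) without overlap, a log2 fold change of -0.23 (limma adjusted p = 0.00241). *Clec14a*, a related lectin gene whose product also binds multimerin 2, fell from 24.1 to 19.6 FPKM (-0.29, limma adjusted p = 0.0172), with overlap by StcE replicate 6 (21.8 FPKM). This call was lost without a filter and under upper quartile scaling (limma adjusted p = 0.0739). The thrombomodulin gene *Thbd* had 240.3 and 259 FPKM (0.11, 95% interval 0.03 to 0.18, limma adjusted p = 0.0618) and passed under 3 of 22 alternatives (limma adjusted p 0.0277 to 0.167), among them the fit without StcE replicate 2 (0.0277), and *Igfbp7* had 33.1 and 33.4 FPKM. Per unit of *Mmrn2*, the level of *Cd93* was 2.60 to 2.77 with saline and 2.65 to 3.06 with StcE, ranges that overlapped.

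For dystroglycan, 0 of 5 tested genes of associated proteins passed in limma, where 11.9% of all genes did, 3 had an unadjusted p below 0.05, and 1 passed with voom on recovered fragments. All 5 had a log2 fold change below 0 (4 when scaled by the upper quartile), as had 5576 of the 11062 genes tested, with a median of -0.12. *Utrn*, the utrophin gene, had 21.4 and 19.0 FPKM (-0.17, 95% interval -0.37 to 0.02), the syntrophin gene *Sntb2* 12.0 and 10.9 FPKM (-0.12, 95% interval -0.20 to -0.04) and the sarcoglycan gene *Sgcb* 6.62 and 6.16 FPKM (-0.09, 95% interval -0.18 to -0.0071). *Sntb2* (limma adjusted p = 0.0596) passed under 3 of 22 alternatives (adjusted p 0.0261 to 0.357), among them the fit without StcE replicate 6 (0.0461).

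The cytoplasmic tails of podocalyxin and CD44 bind ERM proteins, directly or through PDZ adaptors, and link them to actin. Of 6 such genes tested, 1 rose and 5 did not pass, a share of 16.7% beside 11.9% of all genes tested. The median log2 fold change was 0.01, and 0.06 under upper quartile scaling. *Ezr*, the ezrin gene, rose from a saline mean of 24.1 FPKM (samples 21.9 to 25.3) to 28.0 FPKM (26.8 to 28.4) without overlap, a log2 fold change of 0.21 (limma adjusted p = 0.00417). The *Ezr* call held under 21 of 22 alternatives and was lost with the replicate block (adjusted p = 0.0657; 0.0200 in the same 8 samples without it). The more abundant *Msn* (314.2 and 314.3 FPKM), *Slc9a3r2* (206 and 207 FPKM) and *Rdx* (63.6 and 64.2 FPKM) had log2 fold changes of -0.000092, 0.0086 and 0.02.

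Among 24 other mucin-domain or mucin-like surface proteins, 17 were in the table and 9 were tested, of which 4 fell, 0 rose and 5 did not pass, a share of 44.4% beside 11.9% of all genes tested. *Heg1*, an endothelial mucin-like receptor of cell junctions, fell from 23.8 ± 0.832 to 17.9 ± 1.73 FPKM (SD, n = 5 each), a log2 fold change of -0.40 (limma adjusted p = 0.00112). *Mansc1* fell from 8.17 to 6.55 FPKM (-0.28, limma adjusted p = 0.00267), and the groups did not overlap for either gene. *Cx3cl1*, which encodes fractalkine, a chemokine on a mucin stalk, fell from 6.77 to 5.35 FPKM with overlap (-0.29, limma adjusted p = 0.0268). Its call held under 13 of 22 alternatives; it was lost without saline replicate 1, 2 or 3 or StcE replicate 1, 3 or 6 (adjusted p up to 0.0661), and without a filter, under upper quartile scaling and with the replicate block (0.0897, 0.0582 and 0.0938; 0.0433 in the 8 samples of that fit without the block). *Cd99l2* fell from 14.4 to 13.2 FPKM (-0.12, limma adjusted p = 0.0210), and the call held under 18 of 22 alternatives, being lost without saline replicate 3 (adjusted p = 0.0515), under upper quartile scaling (0.281) and in both fits to 8 samples. The counts of lower and higher genes were 4 and 1 when scaled by total fragments, 5 and 1 with voom, and 2 and 0 under upper quartile scaling. The median log2 fold change of the 9 was -0.12, and -0.08 under upper quartile scaling.

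Enzymes that make mucin-type O-glycans were measured as the genes behind the structures that StcE recognises. Of 14 tested, 2 fell, 0 rose and 12 did not pass, a share of 14.3% beside 11.9% of all genes tested, with a median log2 fold change of -0.07. Under upper quartile scaling 0 passed and the median was -0.02. *Galnt10*, which adds the first sugar, fell from 6.56 to 5.86 FPKM (-0.14, limma adjusted p = 0.0378), and *St6galnac4*, a sialyltransferase gene, from 6.35 to 5.86 FPKM (-0.10, limma adjusted p = 0.0467). The groups did not overlap for either gene. The calls held under 10 (*Galnt10*) and 7 (*St6galnac4*) of 22 alternatives, with adjusted p up to 0.211 and 0.362. Leaving out 1 sample, that of *Galnt10* was lost without saline replicate 1, 2, 3 or 4 or StcE replicate 1, 3 or 6, and that of *St6galnac4* without any saline replicate or StcE replicate 1, 2, 3 or 5. Both were also lost at a filter of 0.1 FPKM, without a filter, under upper quartile scaling and with the replicate block (0.211 and 0.151; 0.111 and 0.0456 in the same 8 samples without it). That of *St6galnac4* was further lost with robust eBayes (0.0567) and when scaled by total fragments (0.0690). The 3 most abundant genes, *Galnt1* (73.2 and 72.4 FPKM), *St3gal2* (34.1 and 34.6 FPKM) and *B3gnt3* (22.5 and 21.4 FPKM), did not pass.

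**Figure D4:**
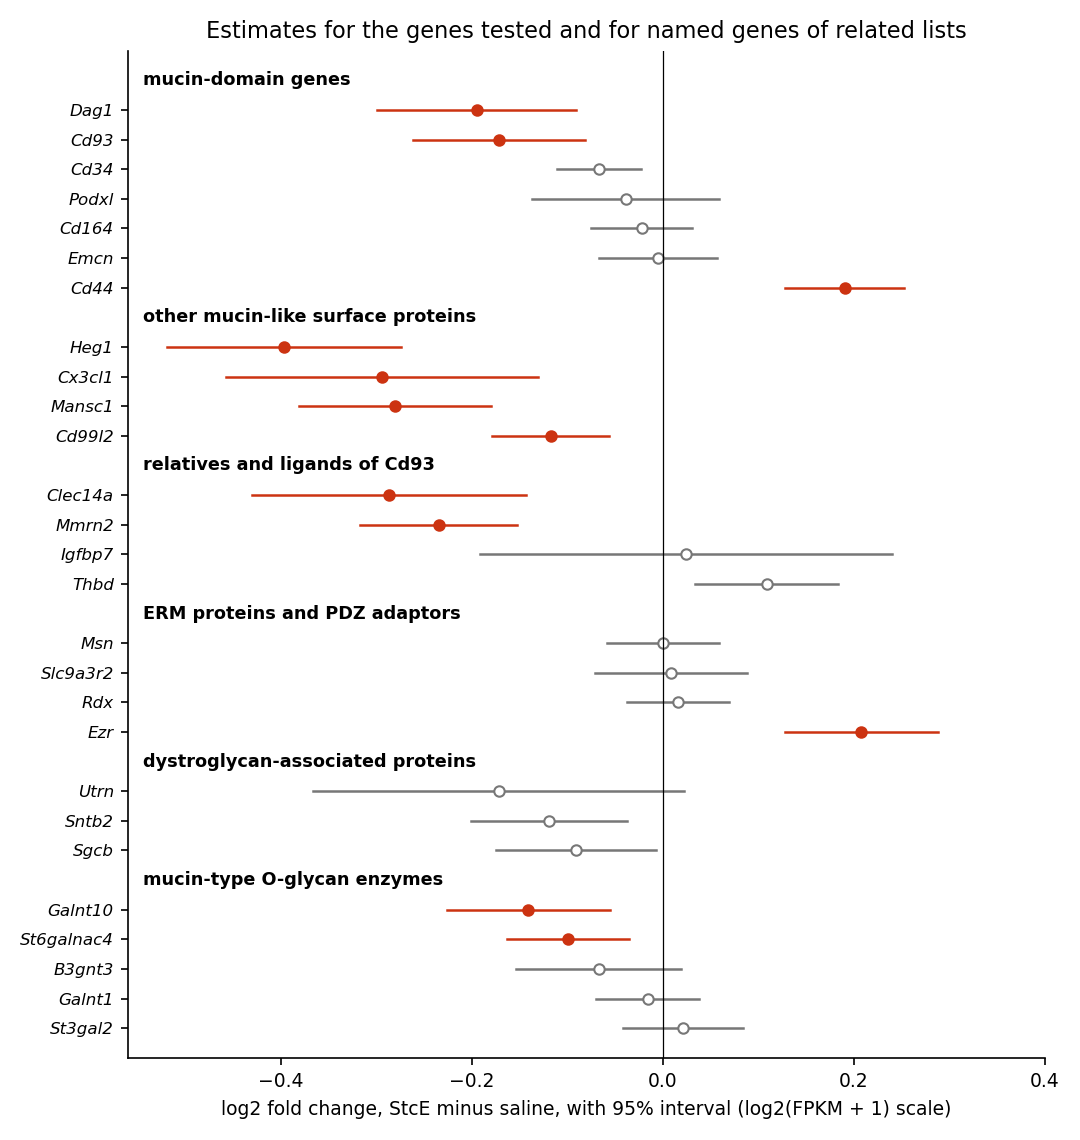
Log2 fold change (StcE minus saline, points) with 95% intervals (lines) for the 7 mucin-domain genes tested and for named genes of 5 related lists, filled red where the limma adjusted p was below 0.05 and open grey otherwise. *Heg1* lies at -0.40 and *Ezr* at 0.21.

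Of 13 endothelial markers tested, 6 fell, 1 rose and 6 did not pass (53.8%, beside 11.9% of all genes tested), and their part in the values above was not tested. They had a median log2 fold change of -0.11 (-0.07 under upper quartile scaling, where 1 fell and 1 rose). The most abundant, *Cdh5*, had 509 and 463 FPKM without overlap and missed the threshold (-0.14, limma adjusted p = 0.0515). It passed under 3 of 22 alternatives (adjusted p 0.0179 to 0.303). *Tek*, an angiopoietin receptor gene, fell from 17.9 to 15.1 FPKM (-0.24, limma adjusted p = 0.00857), and *Fli1* and *Tie1* had log2 fold changes of -0.21 and -0.18 (limma adjusted p = 5.3e-04 and 0.00295). These 3 calls held with each sample left out in turn, but those of *Tek* and *Tie1* were lost with the replicate block (adjusted p = 0.0795 and 0.0733; 0.0312 and 0.0120 in the same 8 samples without it). *Pecam1*, an adhesion molecule of endothelial junctions, fell from 302 to 279 FPKM (-0.11, limma adjusted p = 0.0425), *Erg* from 125 to 115 FPKM (-0.12, limma adjusted p = 0.0356) and *Esam* from 185 to 177 FPKM (-0.07, limma adjusted p = 0.0456), while *Egfl7*, which encodes a secreted endothelial protein, rose from 166 to 188 FPKM (0.17, limma adjusted p = 0.0378). Of 22 alternatives, the calls of *Pecam1*, *Erg*, *Egfl7* and *Esam* held under 8, 7, 9 and 2, with adjusted p up to 0.389, 0.357, 0.196 and 0.696. Among the 10 fits that leave out 1 sample, the *Pecam1* call was kept without saline replicate 5 or StcE replicate 2, that of *Erg* without StcE replicate 3 or 6, that of *Egfl7* without StcE replicate 2 and that of *Esam* in none. Under upper quartile scaling *Tek* and *Tie1* also missed the threshold (limma adjusted p = 0.0615 and 0.0877), and of all list genes that fell, *Heg1*, *Mansc1*, *Mmrn2* and *Fli1* were past it (limma adjusted p = 0.00682, 0.0301, 0.0463 and 0.0126).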

How the data were processed

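RNA from 10 bEnd.3 samples was sequenced, and the authors deposited FPKM with 1 column per sample. Submitters' processing notes list HISAT2 2.0.5, featureCounts 1.5.0-p3 and DESeq2 1.32.0, and reads were aligned to GRCm38 by the authors; the annotation release is not given in the sources used here. A further 22874 rows were empty. Multiplied by GENCODE vM21 exon length, 96.6% of values were whole fragments (within 0.05 fragment), which gave the depth, and 25878 genes were whole in every sample. Each sample's scale followed its median-of-ratios size factor (deviation at most 0.0441%) and not its total (1.58%).

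Genes with a mean of at least 1 FPKM were tested on log2(FPKM + 1), which understates changes of low genes, with limma 3.58.1 in R 4.3.3 (eBayes with trend, treatment as the only term, Benjamini-Hochberg adjustment), after a test on simulated data. Single genes were also tested by exact permutation over 252 arrangements. Replicates differed by more than sampling noise (chi-square per degree of freedom 3.05 to 8.42 between pairs). Copies of at least 95% identity over 150 bases were sought with BLAST 2.17.0. Named were the 9 genes, all list genes past the threshold (in lists with fewer than 3, also the 3 most abundant), and for each of the 9 past the threshold the 3 nearest profiles. The members and lists were chosen with earlier results of these data known. Of the lists set beforehand, 1 is not reported. *Vwf*, *Ptprc*, *Epcam*, *Dcn* and *Cdh5* were named outside this rule, after their values were seen. Alternatives covered pseudocount, filter, scaling, eBayes options, array weights, the replicate block, each sample left out, and voom; scaling by total fragments was chosen after seeing the data.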

Additional observations from a re-analysis of the deposited data

Results flagged for a closer look

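A sample lay apart from the other 4 of its group in 5 of 108 groups examined (54 named genes in 2 treatments), where chance alone would set apart about 1 in 20. The *Muc1* level of saline replicate 4 was 0.223 FPKM, on 12 fragments, while the other 4 ranged from 0.140 to 0.154. *Ezr* had 26.8 FPKM in StcE replicate 5 against 28.0 to 28.4 in the other StcE samples, still above every saline sample. *Rdx* had 66.8 FPKM in saline replicate 5 against 62.1 to 63.4. For *Tie1*, saline replicate 5 had 125.9 FPKM and the others 135 to 139. *Krt8* had 0.0185 FPKM in StcE replicate 2 and 0 in the other StcE samples. None of the 7 tested mucin-domain genes had a sample set apart in this way.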

How the results depend on the processing

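The directions of *Cd44*, *Cd93*, *Dag1* and *Cd34* were kept under all 22 alternatives, and the *Cd44* call with them. The other 3 tested genes missed the threshold throughout; *Podxl*, *Cd164* and *Emcn* kept their sign under 21, 21 and 17.

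Without a filter, 801 genes and 1 of the 9 passed, with *Dag1* at -0.20 (limma adjusted p = 0.0725) and *Cd93* at -0.17 (0.0714). This fit tested 27024 genes in place of 11062 and also re-estimated the variances; the part of each was not tested. Upper quartile scaling shifted the median of all genes by 0.04 on the log2 scale and left 1 of the 7 past the threshold, with *Dag1* at -0.15 (0.133) and *Cd93* at -0.12 (0.161); the cause was not tested.

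With the replicate block over the 8 samples whose numbers occur in both groups, 349 genes and 1 of the 7 passed, with *Dag1* at -0.19 (limma adjusted p = 0.160) and *Cd93* at -0.18 (0.152). The same 8 samples without the block gave 885 genes and 1 of the 7, with *Dag1* at -0.19 (0.0710) and *Cd93* at -0.18 (0.0596), so these calls were lost in the 8 samples with and without the block; the cause was not tested. Same-numbered samples correlated at -0.10, -0.02, -0.03 and 0.05, and no StcE sample correlated best with its own number, so the numbers were not taken to pair the samples.

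Leaving out each sample in turn gave 793 to 1255 genes and 1 to 3 of the 7, with log2 fold changes of -0.22 to -0.15 for *Dag1*, -0.19 to -0.14 for *Cd93* and -0.0780 to -0.0597 for *Cd34*.

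Among protein-coding genes alone, where fewer genes are ranked, the saline ranks were 204 (*Cd93*), 259 (*Cd34*), 396 (*Emcn*), 447 (*Podxl*), 798 (*Cd164*), 1074 (*Cd44*), 2072 (*Dag1*), 11525 (*Muc1*) and 12044 (*Podxl2*). By the median over saline samples *Podxl2* ranked 15631, and the other 8 moved by less than the SD of their ranks. The values of *Muc1* and *Podxl2* rested on few fragments, 6 to 23 per sample. Ranks with fragments divided by transcript length in place of merged exon length were not tested.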
